A study of Homo sapiens with 24 samples.

Results

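The comparison described here asked what RK-33 added to the arsenite response in the RNA of the soluble cytoplasm. It sets the 3 Combo soluble libraries against the 3 NaAsO2 soluble libraries, which are 6 of the 24 libraries of the series, and the labels alone decided which libraries enter it. All cells were U2OS, an established human osteosarcoma line. NaAsO2 cells received 500 µM sodium arsenite for 60 min, an oxidative stress that halts translation and drives mRNA into stress granules. Combo cells received 6 µM RK-33 from 1 h before the same arsenite treatment. Ctrl cells received 0.12% DMSO for 2 h and RK-33 cells received 6 µM RK-33 without arsenite, with 3 soluble libraries in each group. The vehicle of the cells given arsenite alone was not stated in the sources used here, so RK-33 and its solvent cannot be told apart in this comparison. Nuclei were spun out of each lysate, and the supernatant of a faster spin was the soluble fraction. Its pellet was the insoluble fraction, which holds stress granules and other dense material.

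RK-33 is an inhibitor of DDX3X, a DEAD-box RNA helicase that helps ribosomes start on structured mRNAs and is found in stress granules. Arsenite damages proteins and switches on several transcription programs. HSF1 induces chaperones through heat shock elements, the integrated stress response works through phosphorylated eIF2alpha and ATF4, NRF2 induces antioxidant genes, and kinase signalling induces the immediate early genes within minutes. Total RNA depleted of rRNA was sequenced, and exon and intron counts per gene were analysed, so a soluble level can change through synthesis, decay or movement between fractions. These routes cannot be told apart in these libraries.

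The 6 libraries held 9346523 to 15291141 exon counts and 1621536 to 4109747 intron counts. Within a group, libraries correlated at r of 0.987 to 0.992 over log2 CPM across genes and differed beyond sampling noise, with chi-square per degree of freedom of 3.25 to 7.09. Combo replicate 3 stood apart by its intron counts, which made up 28.4% of its total against 13.7% to 19.5% in the other 5 libraries. The markers VIM, COL1A1, FN1, SPARC and RUNX2 of the mesenchymal and osteoblast lineage were all present, while COL1A2 and TWIST1 had means below 1 CPM. The summed lineage markers were 5748 to 5868 CPM in NaAsO2 and 4654 to 5565 CPM in Combo. Epithelial markers summed to 10.0 to 11.96 CPM, endothelial markers to 8.83 to 10.5 CPM and blood markers to 0.540 to 1.64 CPM over the 6 libraries, with CD3E and CD68 at 0 in all of them. Their part in the results below was not tested. In bulk RNA, fewer cells of a type and less RNA per cell cannot be told apart. The study's methods describe repeats of the whole fractionation experiment, while the labels tie no library to a particular repeat, and p-values measure the spread between these samples.

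RK-33 on top of arsenite raised the relative soluble level of a limited set of genes and lowered very few by as much. Values are CPM, counts scaled to the library total by edgeR's TMM method (trimmed mean of M values), and a gene was called when the edgeR adjusted p was under 0.05 and the change was at least 1 on the log2 scale. Of 17666 genes tested, 425 were called higher in Combo (2.41%) and 5 lower (0.0283%). The median change over all genes was −0.04 on the log2 scale. This scaling sets the typical gene near 0, so a change of all RNA together would not show. Among the 425 genes the median change was 1.57 and the highest was 5.61. Without the limit on fold, 846 genes were higher (4.79%) and 295 were lower (1.67%). Many of the called genes were scarce, with a median level of 3.91 CPM against 16.3 CPM over all genes tested. At a mean of at least 10 CPM over the 6 libraries, 99 of 10257 genes were called higher (0.965%) and 0 lower by edgeR. Over all levels, 1892 genes were lower at an unadjusted p under 0.05, and DESeq2 called 7 lower. Of those 99, 71 were protein-coding and 21 were lncRNAs. Without Combo replicate 3, the library with the raised intron share, 284 genes were called, all higher, and 86 of the 99 remained. The 2 groups did not overlap for 423 of the 425 genes, while over all tested genes Combo lay above NaAsO2 in every library for 18.4% and below it for 24.4%.

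**Figure D1:**
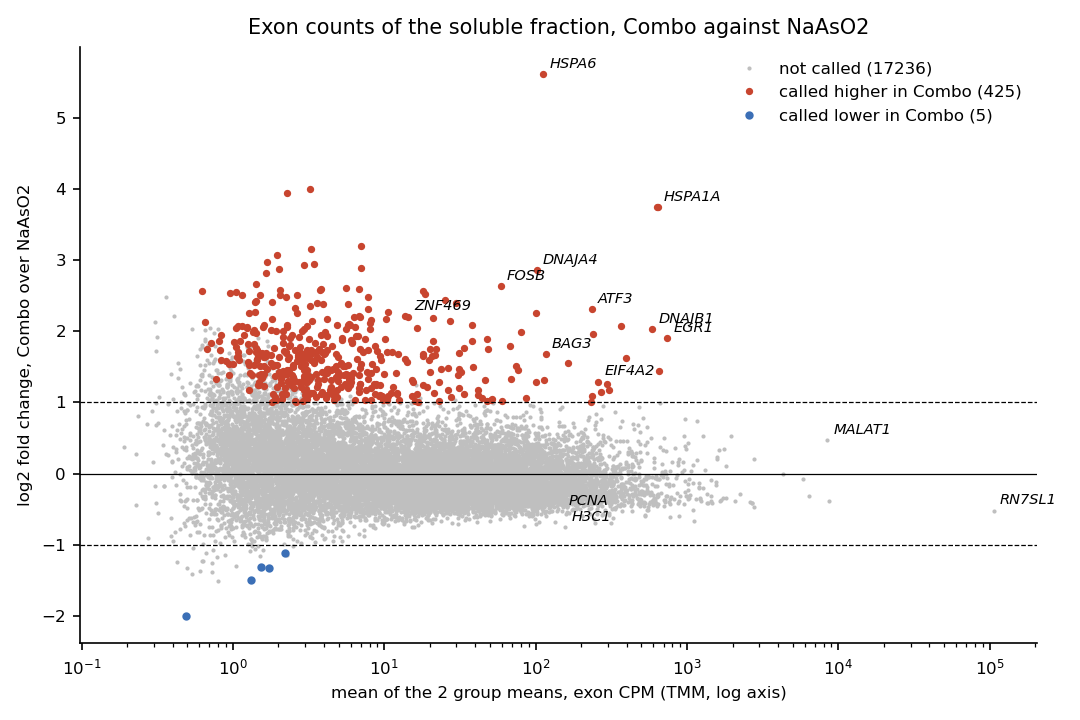
Change from NaAsO2 to Combo in the soluble fraction (y axis, log2 fold change) against the mean level over the 6 libraries (x axis, CPM, log scale), with 1 point per gene tested and called genes coloured. The 425 called genes above the axis far outnumber the 5 below it, and HSPA6 is the highest point at 5.61.

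The single genes with the greatest gains at 10 CPM or more, HSPA6, HSPA1B, HSPA1A and DNAJA4, were all heat shock genes. Of 26 members of a list of HSF1-driven chaperones and cochaperones that were tested, 10 were called higher and 0 lower, and 18 were higher by the adjusted p alone. Among all genes tested 2.41% were called higher and 4.79% were higher by the adjusted p alone. The list had a median change of 0.58 on the log2 scale, with 24 members above 0, beside −0.04 over all genes. HSPA6, a strictly inducible HSP70 on chromosome 1 (161524540 to 161526894, GRCh38), measured 4.40, 3.89 and 5.14 CPM in NaAsO2 and 204, 210 and 247 CPM in Combo. Every Combo library was far above every NaAsO2 library, with a fitted fold of 48.9 (log2 change 5.61 ± 0.30 SE, adjusted p = 3.24e-11). HSPA6 has a close pseudogene copy, HSPA7, so its reads may be split between them.

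HSPA1A, which encodes the main inducible HSP70 and lies on chromosome 6 (31815543 to 31817946), measured 91.5, 78.7 and 96.0 CPM in NaAsO2 and 1129, 1164 and 1277 CPM in Combo. The groups did not overlap, and the log2 change was 3.75 ± 0.22 (adjusted p = 1.42e-10). HSPA1B, its near-identical neighbour (31827738 to 31830254), measured 89.1, 78.3 and 93.6 CPM against 1086, 1181 and 1251 CPM. It also separated fully (3.75 ± 0.24, adjusted p = 7.8e-10), but reads from these paralogs cannot be assigned with certainty. HSPA1L, the third HSP70 gene of that locus, rose from a mean of 3.64 ± 0.301 to 17.5 ± 1.04 CPM (SD, n = 3).

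The cochaperones moved with the HSP70 genes. DNAJA4, an HSP40 cochaperone on chromosome 15 (78264086 to 78282196), measured 23.8, 24.7 and 25.2 CPM in NaAsO2 and 162, 152 and 222 CPM in Combo. All Combo values were above 150 CPM while NaAsO2 values kept within 2 CPM of each other, and the log2 change was 2.86 ± 0.16 (adjusted p = 4.19e-11). DNAJA4 overlaps WDR61 and DNAJA4-DT on the other strand, and the counting ignored strand. DNAJB1, the HSP40 partner of HSP70 that also restrains HSF1, measured 230, 224 and 245 CPM against 909, 900 and 1040 CPM. Its groups did not overlap (2.03 ± 0.15, adjusted p = 5.11e-09). BAG3, the nucleotide exchange factor that directs HSP70 clients to autophagy, measured 56.2, 51.3 and 59.3 CPM against 173, 166 and 194 CPM. It too was higher in every Combo library (1.67 ± 0.11, adjusted p = 7.8e-10). CHORDC1, an HSP90 cochaperone, DNAJB4, another HSP40, and HSPH1, an HSP110 exchange factor, rose by 1.56, 1.31 and 1.15 on the log2 scale.

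Abundant members changed less. HSP90AA1 and DNAJB6 passed the adjusted p with changes of 0.53 and 0.76, and the mitochondrial chaperonins HSPD1 and HSPE1 passed it with 0.46 and 0.59. SERPINH1, the collagen chaperone, was just under the fold limit at 0.95. HSP90AB1, the constitutive HSP90, measured 2686, 2305 and 2740 CPM in NaAsO2 and 3151, 2895 and 2826 CPM in Combo. Its groups did not overlap, but the change of 0.20 ± 0.12 did not pass the test (adjusted p = 0.357).

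Promoter stretches are shown for chosen heat shock genes that hold a match, because HSF1 binds pairs of inverted nGAAn units. The stretches below come from the RefSeq promoter table (GRCh38.p14, of which the 250 bases before each RefSeq start were searched). These starts need not match the gene spans of the count table: the DNAJA4, DNAJB1 and CHAC1 windows shown lie inside those spans, and the CHORDC1 window in part. Capitals mark matches to GAANNTTC or TTCNNGAA on either strand, and 8 bases flank the outer matches. Coordinates are 1-based and minus-strand genes are printed 5′ to 3′ on their own strand.
HSPA6 (chr1:161524458-161524486, plus): cggaaaggTTCGCGAAAGTTCgcggcggc
HSPA1A (chr6:31815429-31815452, plus): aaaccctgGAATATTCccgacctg
HSPA1B (chr6:31827625-31827648, plus): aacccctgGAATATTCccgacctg
DNAJB1 (chr19:14518429-14518452, minus): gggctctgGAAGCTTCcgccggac
DNAJA4 (chr15:78264502-78264525, plus): tccttgcgGAAGCTTCcgccggcg
CHORDC1 (chr11:90223057-90223117, minus): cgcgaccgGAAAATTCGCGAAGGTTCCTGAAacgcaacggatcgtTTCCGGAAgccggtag
The CHORDC1 window holds 5 matches and the HSPA6 window 2, which overlap each other in their letters. HSPA1A and HSPA1B share the same 8 letters. A pair of this kind was found in 11.6% of the 35116 promoters in the table and in 12.04% of the 11789 tested genes that had a promoter. It was found in 38 of the 186 called genes with a promoter (20.4%) and in 17 of the 24 heat shock genes with one. BAG3 and HSPH1, named above, were not among these 17. A match is a description of letters and not a bound site.

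Immediate early genes were another group with many calls. Of 30 listed, 9 were called higher and 0 lower, and by the adjusted p alone 15 were higher and 1 was lower, with a median change of 0.53. Among all genes tested 2.41% were called higher, and by the adjusted p alone 4.79% were higher and 1.67% lower. ATF3, a stress-induced transcription factor on chromosome 1 (212565334 to 212620777), had the smallest p of all genes. It measured 87.6, 73.2 and 76.4 CPM in NaAsO2 and 361, 384 and 432 CPM in Combo, with no overlap (log2 change 2.31 ± 0.11, adjusted p = 2.52e-12). The study reports lower ATF3, DNAJB1, HSPA6 and HSPA1B RNA in Combo than with arsenite alone, opposite to the changes here. Its figure comparing these treatments pooled both fractions and was scaled to spike-ins, which were not used here. The reason for the difference was not tested. FOS, a subunit of the transcription factor AP-1, measured 132, 147 and 142 CPM against 523, 575 and 676 CPM. Its change was 2.08 ± 0.14 (adjusted p = 7.8e-10). FOSB, its relative, measured 12.98, 19.9 and 15.8 CPM against 89.3, 93.5 and 121 CPM. It had the greatest change of the list, 2.64 ± 0.21 (adjusted p = 2.59e-08).

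EGR1, a zinc finger transcription factor induced through serum response factor, measured 323, 300 and 310 CPM in NaAsO2 and 1069, 1193 and 1234 CPM in Combo. The groups did not overlap (1.91 ± 0.16, adjusted p = 3.87e-08). Serum response factor binds CArG boxes, and the EGR1 promoter is shown because it holds 2 of them, in capitals, where 1.16% of the 35116 promoters hold any.
EGR1 (chr5:138465366-138465413, plus): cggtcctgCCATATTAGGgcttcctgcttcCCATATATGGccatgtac
JUN, the other AP-1 subunit, rose by 1.44, the neuronal activity gene ARC by 1.63, the antiproliferative factor BTG2 by 1.34, EGR4 by 1.61 and IER5, which promotes HSF1 activity, by 1.25. The exception was ID1, an inhibitor of basic helix-loop-helix factors, which was 293, 307 and 308 CPM in NaAsO2 and 183, 189 and 190 CPM in Combo. It was lower in every Combo library and fell by 0.69 on the log2 scale (adjusted p = 0.0241).

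**Figure D2:**
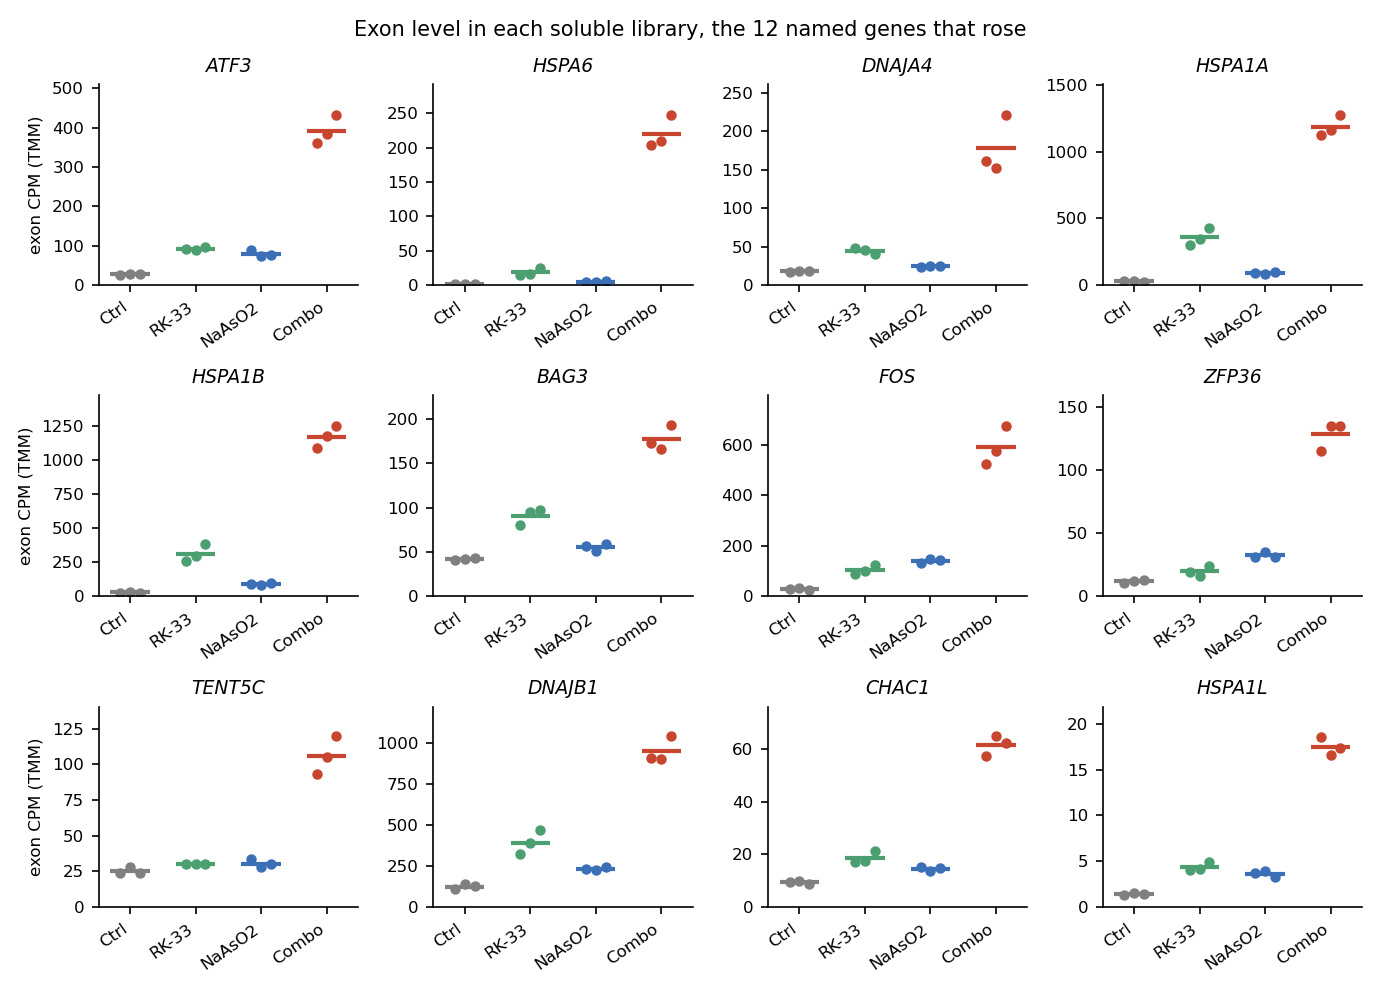
Level in each library (y axis, CPM from 0) of 12 genes in the 4 soluble groups (x axis), 1 point per library and a bar at each group mean. HSPA6 reaches 204 to 247 CPM in Combo against 3.89 to 5.14 CPM in NaAsO2, and ATF3 reaches 361 to 432 CPM against 73.2 to 87.6 CPM.

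ZFP36 (tristetraprolin), which binds AU-rich elements and brings such mRNAs to decay, is itself an immediate early gene. It measured 30.9, 34.8 and 30.6 CPM in NaAsO2 and 115, 135 and 135 CPM in Combo. Every Combo library was above every NaAsO2 library (2.00 ± 0.14, adjusted p = 1.6e-09). Of its relatives, ZFP36L2 passed the adjusted p at 0.47 (adjusted p = 0.0493) and ZFP36L1 measured 402, 378 and 400 CPM against 427, 450 and 383 CPM, a change of 0.09 that did not pass. TENT5C, a poly(A) polymerase that lengthens tails of chosen mRNAs, measured 33.5, 27.8 and 30.02 CPM against 93.1, 105 and 120 CPM. Its groups did not overlap (1.80 ± 0.13, adjusted p = 4.26e-09).

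Targets of the integrated stress response rose in part. Of 22 listed genes, 6 were called higher, 0 lower, and 20 had a change above 0, with a median of 0.27. Among all genes tested 2.41% were called higher. CHAC1, which degrades glutathione, measured 15.1, 13.7 and 14.7 CPM in NaAsO2 and 57.3, 64.9 and 62.2 CPM in Combo. It was higher in every Combo library (2.08 ± 0.16, adjusted p = 1e-08). PPP1R15A (GADD34), which brings a phosphatase to eIF2alpha and so restores translation, measured 103, 99.5 and 91.5 CPM against 340, 383 and 418 CPM. It also separated fully (1.96 ± 0.23, adjusted p = 6.25e-06). DDIT3 (CHOP), a proapoptotic transcription factor, measured 16.8, 18.1 and 14.4 CPM against 54.6, 60.2 and 64.1 CPM, again without overlap (1.86 ± 0.17, adjusted p = 1.72e-07). The mTORC1 regulators DDIT4 and SESN2 rose by 1.52 and 1.02, and ASNS, asparagine synthetase, by 1.53. The other 16 listed genes passed neither threshold. Promoter stretches are shown for 3 chosen genes that hold a match, of which ATF3 comes from the immediate early list. Capitals mark TGATGNAA, a core of the C/EBP-ATF response element, for ATF3 and CHAC1, and the CRE TGACGTCA for PPP1R15A. Matches among the 22 listed genes were not counted.
ATF3 (chr1:212565208-212565231, plus): ggtcaggaTGATGGAAggctgtca
CHAC1 (chr15:40953254-40953277, plus): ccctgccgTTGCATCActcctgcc
PPP1R15A (chr19:48872355-48872378, plus): tctcttcgTGACGTCAgcacgccg
Both motifs were searched on both strands, so the CHAC1 match reads as its reverse complement. TGATGNAA was found in 3.14% of all promoters, 2.68% of tested genes with a promoter and 4.30% of called ones. TGACGTCA was found in 1.65%, 3.34% and 5.38%. For the CArG box these shares were 1.16%, 1.45% and 3.23%.

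Feedback genes of NF-kB signalling were few but large in their changes. Of 17 tested members of the list of NF-kB feedback and cytokine genes, 3 were called higher and 0 lower, and the median change was 0.07. Among all genes tested 2.41% were called higher. NFKBIZ, a nuclear inhibitor-like cofactor of NF-kB, measured 32.0, 34.7 and 37.6 CPM in NaAsO2 and 141, 156 and 203 CPM in Combo. The groups did not overlap (2.26 ± 0.19, adjusted p = 4.32e-08). TNFAIP3 (A20), a ubiquitin-editing inhibitor of the pathway, rose by 1.48 and the chemokine CXCL8 by 1.38. NFKBIA, the classical inhibitor, passed the adjusted p with 0.45.

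In other stress programs few genes reached the call. Over all genes tested 2.41% were called higher and 4.79% were higher by the adjusted p alone. In the NRF2 and BACH1 list, 0 of 20 genes were called by edgeR, and HMOX1, heme oxygenase, was the nearest. It measured 61.2, 71.6 and 64.7 CPM in NaAsO2 and 136, 121 and 126 CPM in Combo. It was higher in every Combo library (0.95 ± 0.13, adjusted p = 8.41e-05) and passed the fold limit under 6 of 16 other settings. TXN, thioredoxin, was lower by the adjusted p (−0.50). Of 5 metallothionein and zinc genes 3 passed the adjusted p alone, MT1X at 0.65, MT2A at 0.53 and the zinc exporter SLC30A1 at 0.77. Among 15 p53 and GADD45 genes GADD45B, PMAIP1 and PLK2 passed it at 0.67, 0.55 and 0.53. In the unfolded protein response list HSPA5 (BiP), HERPUD1 and ERN1 (IRE1) did so, at 0.51, 0.55 and 0.70, and 0 of 21 were called. Of 10 dual-specificity phosphatases, 1 was called, the MAP kinase phosphatase DUSP1 at 1.09, which lost the call with exon and intron counts added. DUSP10 passed the adjusted p at 0.99 and was called under 8 of 16 other settings. Of 12 KLF factors 0 were called and KLF6 passed the adjusted p at 0.49.

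**Figure D3:**
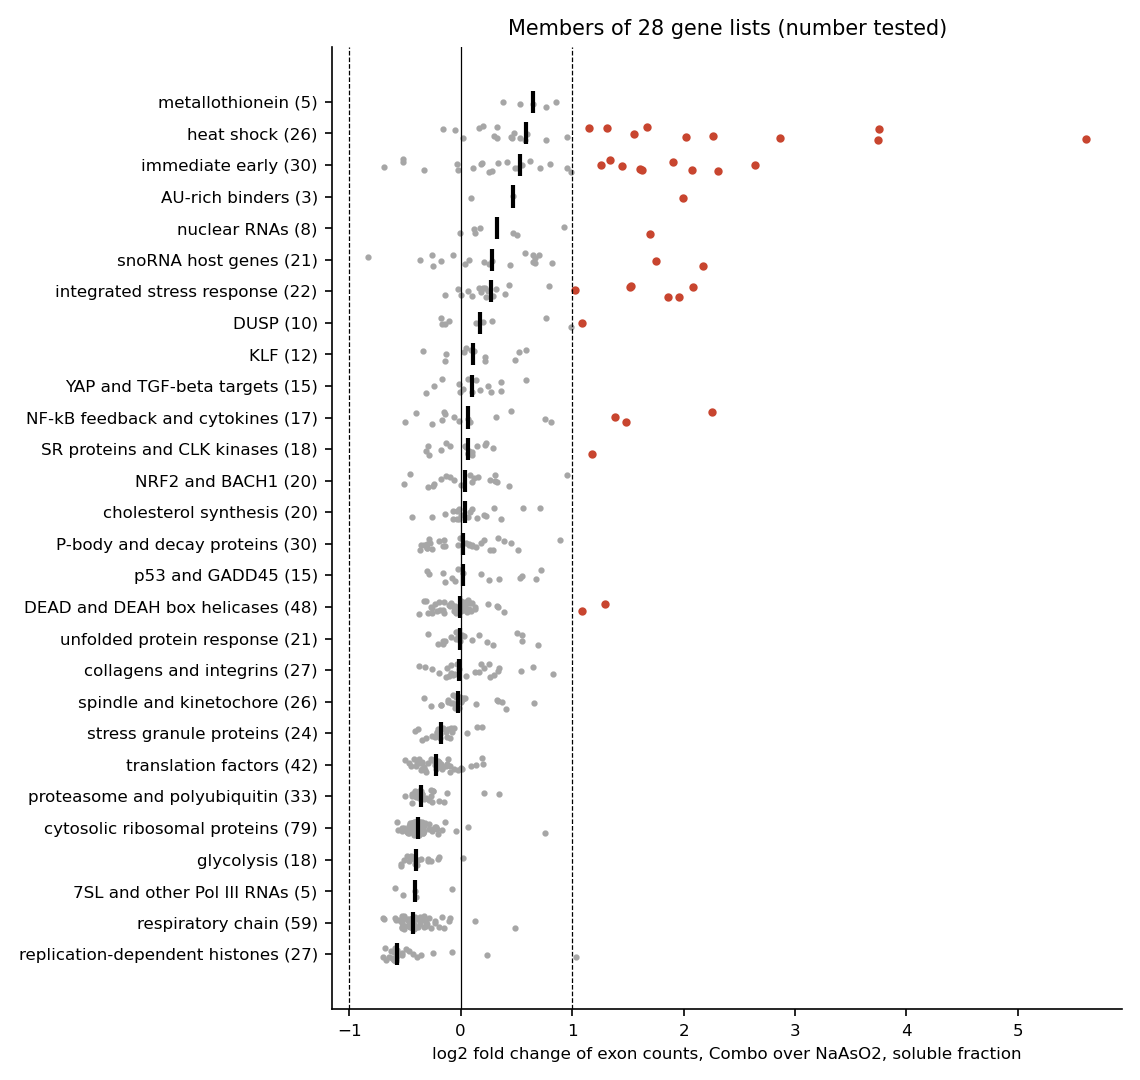
Change from NaAsO2 to Combo (x axis, log2 fold change) of every tested member of 28 gene lists (y axis), with called genes in red and the list median as a black bar. Heat shock, immediate early and integrated stress response genes reach far to the right, and the medians of the ribosomal protein, respiratory chain, proteasome, glycolysis and histone lists lie between −0.57 and −0.35.

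Noncoding RNAs included several called genes. In lncRNAs 185 of 2808 were called higher (6.59%) against 165 of 13439 protein-coding genes (1.23%), and at a mean of at least 10 CPM the shares were 6.31% and 0.731%. The counting ignored strand, and some called lncRNAs overlap other genes, such as ENSG00000289486 with STIP1 and KCNQ1OT1 with KCNQ1. Over all classes, 58.8% of the genes called higher and 60.6% of all tested overlap another gene. The part of overlap in the lncRNA share was not tested. Among 21 snoRNA host genes 2 were called and 7 passed the adjusted p, all higher. Over all genes tested these shares were 2.41% and 4.79%. SNHG12 measured 21.8, 22.1 and 22.95 CPM in NaAsO2 and 66.5, 74.0 and 84.5 CPM in Combo. Its groups did not overlap (1.75 ± 0.17, adjusted p = 2.61e-07), and it overlaps TRNAU1AP on the other strand. SNHG5 rose by 2.17, while the growth arrest host gene GAS5 and SNHG1 passed the adjusted p at 0.67 and 0.82. Many snoRNA host transcripts are spliced, poorly translated and removed by nonsense-mediated decay.

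Of 8 nuclear RNAs tested, 1 was called higher, where 2.41% of all genes were. KCNQ1OT1, an imprinted antisense RNA within KCNQ1, measured 13.7, 15.6 and 14.8 CPM in NaAsO2 and 32.0, 33.8 and 77.7 CPM in Combo. It rose by 1.70 (adjusted p = 0.000133), and its highest value was in Combo replicate 3, the library with the raised intron share. NEAT1, the scaffold of paraspeckles, was 328, 386 and 286 CPM against 554, 621 and 728 CPM. Its groups did not overlap, and it passed the adjusted p at 0.93. MALAT1, a nuclear speckle RNA, had a change of 0.47 that did not pass (adjusted p = 0.161). NORAD, a cytoplasmic lncRNA that binds Pumilio proteins, measured 178, 188 and 170 CPM against 210, 248 and 244 CPM, and was higher by 0.39 (adjusted p = 0.0266).

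Among 18 SR proteins and CLK kinases, CLK1 alone was called higher, where 2.41% of all genes were. CLK1 measured 24.5, 28.02 and 24.5 CPM in NaAsO2 and 56.2, 56.9 and 60.7 CPM in Combo. CLK1 phosphorylates SR splicing factors, and its groups did not overlap (1.17 ± 0.13, adjusted p = 3.14e-06). The DEAD and DEAH box list held 48 helicases, and only the 2 eIF4A translation initiation paralogs were called among them, beside 2.41% over all genes. EIF4A2 measured 152, 144 and 155 CPM against 347, 363 and 394 CPM. It rose by 1.29 ± 0.11 (adjusted p = 3.87e-08) and overlaps RFC4. EIF4A1 rose by 1.09 at 6.73 to 14.3 CPM between the group means, but most of its exons are shared with the readthrough gene SENP3-EIF4A1 and its counts are uncertain. Without NaAsO2 replicate 2 or replicate 3, and with exon and intron counts added, EIF4A1 was no longer called.

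In exon counts, the mRNAs of the inhibitor's target and of the main stress granule proteins did not change detectably. Protein was not measured here. DDX3X measured 519, 451 and 500 CPM in NaAsO2 and 409, 424 and 401 CPM in Combo, and although the groups did not overlap, the change of −0.25 ± 0.20 did not pass the test (adjusted p = 0.495). G3BP1, the nucleator of stress granules, measured 425, 407 and 447 CPM against 394, 409 and 373 CPM. These groups overlapped (−0.12 ± 0.11, adjusted p = 0.532). Of the mRNAs of 24 stress granule proteins 0 passed the adjusted p in either direction in exons, with a median of −0.18. In introns 4 of 23 of these genes were called higher, beside 5.37% over all genes, and DDX3X introns are given below. In 30 P-body and decay genes PAN2 and TOB1 passed the adjusted p in exons at 0.51 and 0.89, where 4.79% of all genes were higher by it.

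Lower levels were small. The 12 genes with the smallest p among those lower at 10 CPM or more had changes of −0.75 to −0.45. PCNA, the sliding clamp of DNA replication, measured 173, 170 and 187 CPM in NaAsO2 and 128, 118 and 120 CPM in Combo. It fell by 0.53 (adjusted p = 0.00546). CDC45, a subunit of the replicative helicase, measured 76.9, 71.2 and 79.0 CPM against 59.4, 49.95 and 44.7 CPM and fell by 0.56 (adjusted p = 0.0034). RBBP4, a histone chaperone, GINM1, H3C1 and RPL35A fell by 0.50, 0.52, 0.75 and 0.57. In each of these genes every Combo library was below every NaAsO2 library.

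Of 79 cytosolic ribosomal protein genes 11 were lower by the adjusted p and 0 higher, where 1.67% of all genes tested were lower, with a median of −0.39, and 2 of the 79 had a change above 0. Of 59 respiratory chain genes 4 were lower (median −0.42), of 33 proteasome and polyubiquitin genes 3 (median −0.35), of 18 glycolysis genes 4 (median −0.40) and of 42 translation factors 4 (median −0.22). Replication-dependent histones had the lowest median, −0.57, with 2 of 27 lower by the adjusted p. No gene of these 6 lists was called in either direction. The 7SL and other Pol III RNAs had a median of −0.41 with 0 of 5 passing. RN7SL1 alone took 10.5% to 13.1% of the exon counts in NaAsO2 and 8.33% to 9.57% in Combo, which did not overlap, and leaving these genes out of the scaling gave 424 called genes in place of 430. The spindle and kinetochore list had 0 of 26 passing, the YAP and TGF-beta list 3 of 15 higher by the adjusted p alone (THBS1 at 0.59), and the collagen and integrin list 1 of 27 (COL6A3 at 0.54). Over all genes tested 4.79% were higher by the adjusted p. The 5 genes called lower were all near 1 to 3 CPM in NaAsO2, among them the ribosomal pseudogene RPS26P21 and MIR3609 (−1.12).

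Intron counts of the soluble fraction may come from unspliced RNA, retained introns, excised introns (lariats) or other intron-derived transcripts. The counting ignored strand, so overlapping genes may add to them. More genes were called in introns than in exons. Of 17406 genes tested for introns, 934 were called higher in Combo (5.37%) and 156 lower (0.896%). This split depends on the scaling: with exon library sizes and factors 1832 were higher and 17 lower, with a median of 0.35 over all genes, and with library size alone 762 and 278. Of the 425 genes higher in exons, 202 could be tested for introns, and 105 of these were called higher and 1 lower, with a median intron change of 1.22. In the other direction, 718 of 13116 genes tested in both tables were higher in introns (5.47%), and 613 of the 718 were not called in exons, where their median change was 0.25.

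Heat shock genes were also frequent among the intron changes. Of 19 heat shock genes with testable introns 16 were called higher, beside 5.37% over all genes, with a median of 1.88. DNAJA4 introns measured 69.7, 66.0 and 89.6 CPM of intron counts in NaAsO2 and 904, 859 and 1016 CPM in Combo. They separated fully, with a log2 change of 3.63 (adjusted p = 1.41e-15). HSP90AB1 introns measured 154, 130 and 179 CPM against 754, 733 and 617 CPM, a change of 2.18 (adjusted p = 2.27e-12), while its exons had the change of 0.20 given above. BAG3, HSPH1 and SERPINH1 introns rose by 3.02, 2.73 and 2.98. The introns of ATF3 rose by 2.26, and those of TENT5C were at 167.7 to 210 CPM against 37.8 to 39.1 CPM.

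Several lists held more genes called in introns than in exons. Among all genes tested 5.37% were called higher in introns and 2.41% in exons. Of 19 cholesterol synthesis genes 10 were called higher in introns, among them INSIG1 (2.60), IDI1 (2.51), HMGCS1 (2.14) and SC5D (2.00), whereas 0 of 20 were called in exons by edgeR and INSIG1 and IDI1 passed the adjusted p there at 0.72 and 0.56. INSIG1 is an ER protein that holds back sterol synthesis, and the others are enzymes of the pathway. Of 19 unfolded protein response genes 11 were called higher in introns against 0 of 21 in exons, with the ER chaperone CALR at 1.95 in introns and −0.04 in exons. Integrated stress response introns were higher in 7 of 16 genes, including SESN2 at 2.38 and STC2 at 2.20, and immediate early introns in 8 of 20, both lists that also held genes called in exons. Histone genes with annotated introns were higher in 6 of 7, with a median of 1.78, while the exon median of the list was −0.57. DDX3X introns rose by 1.21 (adjusted p = 7.35e-05). Introns called lower included ST3GAL5, a sialyltransferase, at 91.6, 88.3 and 79.4 CPM in NaAsO2 and 29.1, 33.1 and 30.7 CPM in Combo. It fell by 1.48 (adjusted p = 1.18e-07) without overlap. FXYD5, PPARG, CARNMT1-AS1, WDR43 and SFMBT1 introns fell by 1.31, 1.05, 1.14, 1.08 and 1.16, but with the exon library sizes and scaling none of these 5 was called, and PPARG and WDR43 were each lost when 1 of 2 libraries was left out.

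**Figure D4:**
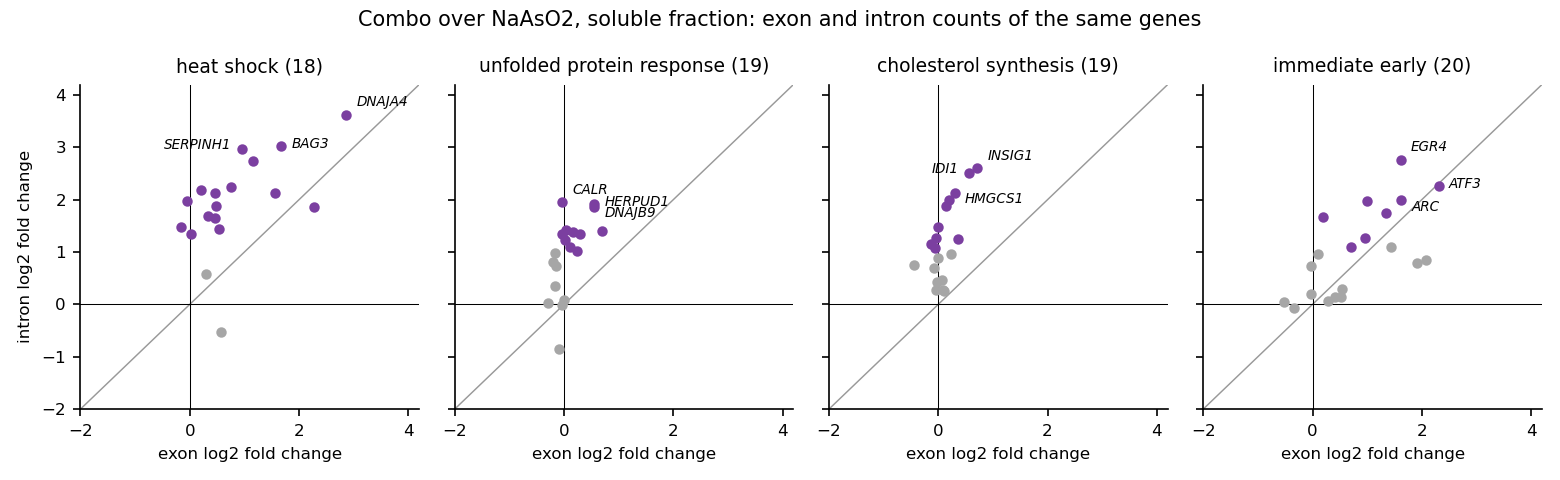
Intron change (y axis, log2 fold change) against exon change (x axis, log2 fold change) from NaAsO2 to Combo for members of 4 gene lists, with genes called in introns in purple and a grey line where both changes are equal. Cholesterol synthesis genes lie above the line at small exon changes, and the INSIG1 introns stand at 2.60 against 0.72 in exons.

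A model over exon and intron counts with the library as a block tested intron changes against exon changes. This test was added after the data were seen. Introns and exons each had their own scaling, so the median ratio change was −0.002 and a shift of all introns together would not show. The ratio was not tested with exon scaling for the introns. The intron-to-exon ratio was called higher in Combo for 585 of 13116 genes (4.46%) and lower for 133 (1.01%). Of 18 heat shock genes, 12 had a higher ratio and 1 a lower one, and the ratio rose in 10 of 19 cholesterol synthesis genes, 7 of 19 unfolded protein response genes and 6 of 7 histone genes. SERPINH1, HSP90AB1 and CALR had ratio changes of 2.03, 1.99 and 1.98. Among 20 immediate early genes the ratio rose in 0 and fell in 2 in this edgeR model, FOS (−1.21) and EGR1 (−1.12). Of the 202 genes chosen for higher exons, 10 had a higher ratio and 18 a lower one, which is a description only because the exon change is part of the ratio. Those with a lower ratio included CECR2, a chromatin remodelling factor whose exons rose by a fitted 2.83-fold while its ratio fell by 2.01 on the log2 scale, and ZNF469, whose exons rose by 2.21 while its ratio fell by 2.11. CECR2 exons measured 23.6, 20.2 and 16.3 CPM against 56.6, 51.3 and 62.1 CPM, and ZNF469 exons 4.29, 5.38 and 5.51 CPM against 20.4, 25.6 and 24.6 CPM. For both genes every Combo library was above every NaAsO2 library in exons.

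The effect of RK-33 was next compared between cells with and without arsenite, as Combo minus NaAsO2 against RK-33 minus Ctrl. RK-33 alone raised 50 genes in the soluble fraction (0.283%) and lowered 41 (0.232%). Of the 425 genes higher in Combo, 31 were also called higher in RK-33 against Ctrl and 0 lower, with a median change there of 0.16. The difference between the effects was itself called for 162 genes, higher with arsenite (0.917%), and for 7, lower (0.0396%), and 108 of the 162 were among the 425. These counts moved with the library set, from 77 without RK-33 replicate 3 to 244 without Combo replicate 1.

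The HSP70 genes responded to RK-33 in both settings. HSPA1A measured 27.3, 30.6 and 24.9 CPM in Ctrl and 298, 346 and 430 CPM in RK-33, a change of 3.70 beside 3.75 with arsenite, and the difference of 0.05 ± 0.29 did not pass the test (adjusted p = 0.951). HSPA6 measured 0.745, 1.10 and 0.963 CPM in Ctrl and 14.4, 16.1 and 24.97 CPM in RK-33, a change of 4.28 beside 5.61. Its difference of 1.33 ± 0.52 did not pass (adjusted p = 0.186). For FOS, with 1.84 beside 2.08, and EGR1, with 1.60 beside 1.91, the differences did not pass either (adjusted p = 0.542 and 0.496). Of 26 heat shock genes 8 were called higher by RK-33 alone, and DNAJA4 alone among them had a called difference, 1.30 without and 2.86 with arsenite (difference 1.56 ± 0.21, adjusted p = 0.000698).

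Other genes responded more with arsenite than without it. TENT5C measured 23.8, 28.2 and 23.98 CPM in Ctrl and 30.3, 30.1 and 30.3 CPM in RK-33, and the difference of its effects was 1.55 ± 0.18 (adjusted p = 0.000188). FOSB measured 7.91, 7.27 and 6.42 CPM in Ctrl and 9.82, 8.88 and 6.56 CPM in RK-33, which overlap, with a difference of 2.41 ± 0.31 (adjusted p = 0.000537). TUBB3, a beta-tubulin, measured 9.03, 9.77 and 9.55 CPM in NaAsO2 and 43.8, 44.4 and 61.4 CPM in Combo. Its effects differed by 2.53 ± 0.34 (adjusted p = 0.000698), and it lies within a readthrough locus where counts are uncertain. CECR2 measured 42.8, 42.0 and 42.8 CPM in Ctrl and 38.6, 38.6 and 33.5 CPM in RK-33, beside the NaAsO2 and Combo values given above. Its difference was 1.71 ± 0.18 (adjusted p = 5.23e-05). SNHG12, NFKBIZ, ZFP36, CHAC1 and EIF4A2 had differences of 1.62, 1.16, 1.26, 1.09 and 0.87 that passed the adjusted p.

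**Figure D5:**
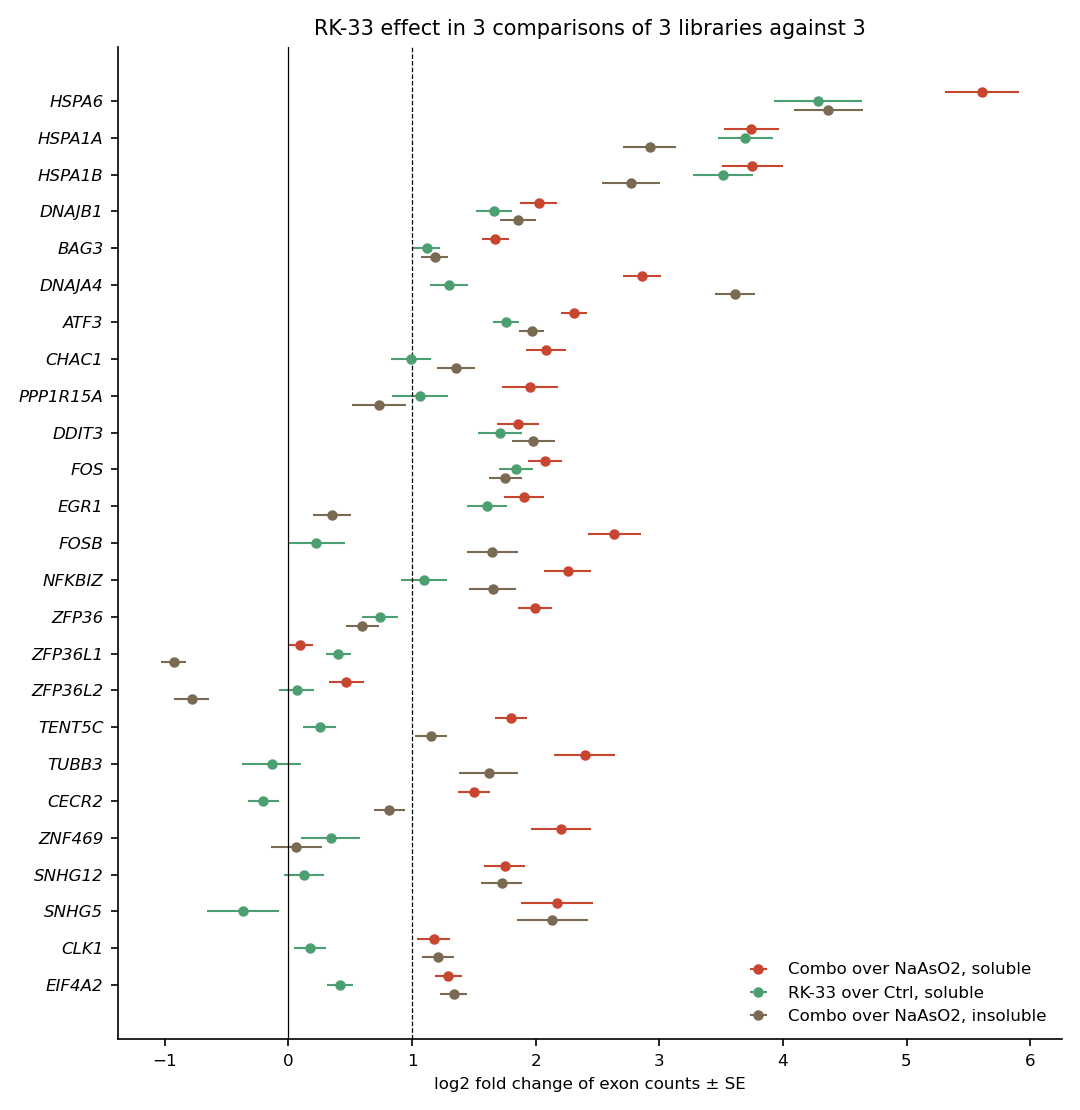
Log2 fold change with its SE (x axis) of 25 genes (y axis) in 3 comparisons, Combo against NaAsO2 in the soluble fraction, RK-33 against Ctrl in the soluble fraction and Combo against NaAsO2 in the insoluble fraction. HSPA1A stands at 3.75, 3.70 and 2.92, while FOSB stands at 2.64, 0.23 and 1.65 and EGR1 at 1.91, 1.60 and 0.35.

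Last, the same contrast was taken in the insoluble fraction, which comes from the same lysates. There, 550 genes were higher in Combo (3.11%) and 144 lower (0.815%). Of the 425 genes higher in the soluble fraction, 224 were called higher in the insoluble one, 0 lower, and 411 had a change above 0, with a median of 1.16. The heat shock list had 14 of 26 higher in the insoluble fraction and 10 in the soluble one, a difference of counts that was not tested. DNAJA4 was 3.61 in the insoluble and 2.86 in the soluble fraction, and the difference did not pass (adjusted p = 0.119). In the NaAsO2 insoluble group, replicate 3 stood apart from replicates 1 and 2 in several genes, such as JUN with 1025 CPM against 417 and 487 CPM and IER5 with 928 CPM against 278 and 292 CPM. RN7SL1 took 5.79% of its exon counts against 0.426% and 0.798% in replicates 1 and 2, beside 10.5% to 13.1% in the NaAsO2 soluble libraries. Without this library, the differences between fractions given below numbered 53 in place of 25. The cause was not tested.

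The difference between fractions was called for 19 genes higher in the soluble fraction (0.108%) and 6 higher in the insoluble one (0.034%). All 3 AU-rich binding proteins were among the 19. ZFP36 measured 32.9, 28.3 and 30.6 CPM in the insoluble NaAsO2 libraries and 46.0, 51.1 and 41.9 CPM in the insoluble Combo libraries, so its change was 0.60 there and 2.00 in the soluble fraction (difference 1.40 ± 0.19, adjusted p = 0.0012). ZFP36L1 was lower in insoluble Combo, at 375, 424 and 338 CPM against 739, 663 and 765 CPM. It changed by −0.93 there and by 0.09 in the soluble fraction (difference 1.02 ± 0.14, adjusted p = 0.00148). ZFP36L2 changed by −0.78 and 0.47 (difference 1.25 ± 0.20, adjusted p = 0.0036).

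EGR1 measured 506, 420 and 287 CPM in the insoluble NaAsO2 libraries and 476, 522 and 552 CPM in the insoluble Combo libraries, which overlap, and the effects differed by 1.55 ± 0.22 (adjusted p = 0.00148). ZNF469 changed by 0.06 in the insoluble fraction against 2.21 in the soluble one (difference 2.14 ± 0.32, adjusted p = 0.00276). In the opposite direction, CWC15, a spliceosome subunit, was 14.5, 13.8 and 8.42 CPM in insoluble NaAsO2 and 32.0, 33.0 and 24.7 CPM in insoluble Combo. In the soluble fraction it was 53.2, 51.3 and 54.9 CPM against 42.6, 34.8 and 33.9 CPM, so the effects differed by −1.79 ± 0.24 (adjusted p = 0.0012). FABP5, a fatty acid binding protein, and COX7A2, a cytochrome oxidase subunit, differed by −1.17 and −1.08. These fraction differences rest on the shared estimate of spread: with the 4 compared groups fitted alone by edgeR, 0 genes were called, 1190 had an unadjusted p under 0.05, and DESeq2 over all libraries called 73. With the lysate as a block, 6 genes were called, and ZFP36L2, PDZD11, FABP5 and COX7A2 were not among them. With single libraries left out the count ranged from 9 (without Combo insoluble replicate 1) to 419 (without NaAsO2 insoluble replicate 1).

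Over whole libraries, the intron share was 14.8%, 18.9% and 13.7% in NaAsO2 and 18.1%, 19.5% and 28.4% in Combo. The groups overlapped, and the difference of means of 6.22 percentage points had an exact two-sided permutation p of 0.2, where 3 against 3 libraries cannot go below 0.1. Without Combo replicate 3 the difference was 3.00 points. CircRNAs, which lack ends and resist exonucleases, were measured as back-splice reads over back-splice plus linear reads at the same sites of 394 circRNAs. Their content was 1.78%, 1.92% and 2.35% in NaAsO2 and 1.98%, 1.54% and 1.41% in Combo, with overlapping groups. The log2 ratio of the geometric means was −0.30 (exact two-sided permutation p = 0.3). Relative to all exon and intron counts the ratio was −0.43, and for circRNAs with both ends in exons −0.40, and in both of these the groups did not overlap (exact two-sided permutation p = 0.1, the smallest possible). Without NaAsO2 replicate 3 the content ratio was −0.19.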

How the data were processed

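The authors aligned reads to GRCh38.p13 with STAR 2.7.2b and SAMtools 1.2 and deposited raw counts per gene, made with featureCounts without strand from directional libraries, for exons and separately for introns (minimum overlap 25 bases). Deposited circRNA counts are back-splice and linear reads. Spike-ins were not used here. Genes split over lines were rejoined. Counts were analysed in R 4.3.3 with edgeR 4.0.16: 1 quasi-likelihood model over 24 libraries in 8 groups, TMM factors, genes averaging 1 CPM or more over all libraries, Benjamini-Hochberg adjustment over all genes tested, adjusted p under 0.05 and an absolute log2 change of at least 1. DESeq2 1.42.0 was an alternative. On simulated exon counts (17481 genes), 71 of 100 genes changed by 1 and 97 of 100 changed by 2 on the log2 scale passed the adjusted p. Of the unchanged genes, 5 passed both the adjusted p and the fold limit, and those passing the adjusted p alone were not counted. In the simulated ratio test (12850 genes), 26 of 68 and 66 of 74 passed the adjusted p, and 9 unchanged genes passed both limits. The comparison, the gene lists and the motifs were chosen with earlier results of these data known. Named genes were those with the smallest p or largest change at 10 CPM or more in each test, those named by the study, and up to 4 per list with the smallest p; other list members and BTG2, JUN, IER5, SNHG5 and the like were named after their values were seen.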

Additional observations from a re-analysis of the deposited data

Results flagged for a closer look

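The effect of RK-33 differed between cells with and without arsenite for 162 genes, higher with arsenite, and for 7, lower, each by a test of the difference itself. Among genes named by rule, the difference of log2 changes was 1.71 for CECR2, 1.55 for TENT5C, 2.41 for FOSB, 2.53 for TUBB3 and 1.56 for DNAJA4. These 5 remained called under all 19 other settings tried. In the opposite direction it was −1.12 for RCAN1, −1.11 for XAB2, −1.28 for KLF10, −1.13 for OGDH and −1.19 for USP5. RCAN1, an inhibitor of calcineurin, measured 52.4, 52.5 and 56.7 CPM in Ctrl, 90.0, 84.9 and 96.6 CPM in RK-33, 82.5, 73.1 and 86.0 CPM in NaAsO2 and 62.9, 65.1 and 59.2 CPM in Combo. It was thus higher with RK-33 alone, and in Combo it was below every NaAsO2 library, although that change of −0.37 did not pass the test (adjusted p = 0.0731). All 5 lost the call with library size alone as the scaling, and all but RCAN1 lost it when certain single libraries were left out.

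The effect also differed between the fractions, for 19 genes higher in the soluble and 6 higher in the insoluble fraction. The differences were 1.40 for ZFP36, 1.02 for ZFP36L1, 1.55 for EGR1, 2.14 for ZNF469 and 1.25 for ZFP36L2. In the opposite direction they were −1.79 for CWC15, −1.25 for WDR61, −1.11 for PDZD11, −1.17 for FABP5 and −1.08 for COX7A2. WDR61 overlaps DNAJA4 on the other strand, and the counting ignored strand. All 10 lost the call when the compared groups were fitted alone. PDZD11, FABP5 and COX7A2 also lost it when certain single libraries were left out, as did ZFP36L1 without NaAsO2 soluble replicate 2. With the lysate as a block ZFP36L2, PDZD11, FABP5 and COX7A2 lost it.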

How the results depend on the processing

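No result reversed. The 430 exon calls became 716 with the compared groups alone, 668 with exon plus intron counts, 1141 with no fold limit, 91 at a log2 change of at least 2 and 99 at 10 CPM or more. They ranged from 284 to 523 with single libraries left out, 284 being without Combo replicate 3, where 281 were shared and 86 of the 99 kept. Library size alone as the scaling moved the median of all genes from −0.04 to 0.08. Over these settings the ribosomal protein median stayed between −0.49 and −0.27. The 1090 intron calls became 1849 with exon library sizes, 2501 with no fold limit, 183 at a log2 change of at least 2 and 696 at 10 CPM or more, and ranged from 843 to 1123 with single libraries left out. The 169 differences with arsenite became 321 with library size alone, 293 with no filter, 328 with edgeR's likelihood ratio test, 289 with DESeq2, 543 with the compared groups alone, 369 with no fold limit and 46 at a log2 change of at least 2, and ranged from 77 (without RK-33 replicate 3) to 244. The counts were 78 and 108 without Ctrl replicate 1 and replicate 3, 105 without RK-33 replicate 2, 107 without NaAsO2 replicate 3 and 111 without Combo replicate 3. The 25 differences between fractions became 46, 218, 75, 73 and 0 under the same first 5 settings, 63 with no fold limit and 1 at a log2 change of at least 2, and ranged from 9 to 419. The count of 419 was without NaAsO2 insoluble replicate 1, and 212 without Combo insoluble replicate 3. The causes were not tested. The ratio calls stayed between 553 and 810 beside 718, with introns and exons scaled separately in every setting. The intron share difference ranged from 3.00 to 8.19 points and the circRNA log2 ratio from −0.44 to −0.19 with single libraries left out.

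Replicate numbers gave no sign of pairing: deviations of same-numbered NaAsO2 and Combo libraries from their group means correlated at 0.04, −0.16 and −0.21 over 17666 genes. Deviations within a group depend on each other, so these values cannot decide whether same-numbered libraries share a repeat. Between differently numbered libraries they correlated from −0.23 (NaAsO2 replicate 2, Combo replicate 1) to 0.32 (NaAsO2 replicate 2, Combo replicate 3). A pairing under other numbers was not tested. With the replicate number as a block the counts were 437 in exons (685 with the compared groups alone), 1090 in introns, 175 and 30 for the differences, and with the lysate as a replicate block 6 between fractions. In simulated exon data the test found 71 of 100 genes changed by 1 on the log2 scale, by the adjusted p alone.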

Other observations

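A list of 45 DNA replication factors was made after PCNA and CDC45, which it holds, were seen to be lower, so its counts are a description. All 45 were tested, 13 were lower by the adjusted p (1.67% over all genes), 0 reached the fold limit in edgeR, and 1 had a change above 0. The median was −0.40, beside −0.04 over all genes, −0.39 in ribosomal protein genes and −0.42 in respiratory chain genes, and the summed level was 5254 to 5857 CPM in NaAsO2 and 3973 to 4662 CPM in Combo. In RK-33 against Ctrl the median of the same list was 0.00, and in the insoluble fraction −0.31.

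The share of genes called higher is given here by class of transcript, with no test between classes, beside 2.41% over all genes. It was 5.04% of 456 processed pseudogenes, 24.1% of 29 snoRNA genes and 21.1% of 19 miRNA genes. At a mean of 10 CPM or more, 0 of 28 processed pseudogenes and 0 of 4 snoRNA genes were called by edgeR, and 0 miRNA genes reached that level. Of 193 divergent transcripts (names ending in -DT) 14 were called higher, of 518 antisense transcripts 24, and of 449 ZNF genes 3. By exon length, 5.57% of the shortest of 5 equal classes and 1.30% of the longest were called higher, and in protein-coding genes 2.23% and 0.660%. The median level was 2.69 CPM in the shortest class and 35.8 CPM in the longest, and the part of level in these shares was not tested. Sorted into 5 equal classes by the Ctrl difference between insoluble and soluble levels, the median soluble change was −0.26 in the class most soluble in Ctrl, then −0.14, −0.05 and 0.06, and 0.25 in the class most insoluble in Ctrl. That sorting uses none of the 6 libraries compared. In the same order of classes, 3.28%, 1.61%, 1.75%, 2.29% and 3.09% of genes were called higher. In protein-coding genes 1.02% of the class most soluble and 1.75% of the class most insoluble in Ctrl were. The median level was 4.22 CPM in the class most insoluble in Ctrl and 16.2 to 21.9 CPM in the others. The part of level in these values was not tested.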
